A study of Mus musculus with 2 samples.

Results

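Fibroblast growth factors (FGFs) are secreted ligands that act on receptor tyrosine kinases, and the genes described here are the 6 ligands Fgf1, Fgf2, Fgf7, Fgf9, Fgf10 and Fgf18, the 3 receptor kinases Fgfr1, Fgfr2 and Fgfr3, and Fgfrl1. They were taken by gene symbol from a table of 37309 rows, which hold 11 rows for these 10 genes because Fgfr1 is listed under 2 Ensembl identifiers. The table compares 1 RNA sequencing library of supportive intestinal subepithelial myofibroblasts (ISEMFs), cultured from the small intestine of C57BL/6 neonates aged 5 days, with 1 library of non-supportive ISEMFs, cultured in the same way from the small intestine of adult C57BL/6 mice aged 2 months. Supportive ISEMFs are those on which intestinal crypts grew into enteroids without added R-spondin. Both were passaged cultures of wild type cells grown in medium with serum, insulin, transferrin and epidermal growth factor. No FGF is named among the supplements. Neither population was replicated, and the differences given here have no replicate check. The population, the age of the mice, the isolation and any difference in culture passage cannot be told apart.

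A ligand of this family binds its receptor together with heparan sulfate, a sulfated sugar chain on cell surface and matrix proteins. The receptor then signals through the adaptor Frs2 to the Ras and MAP kinase cascade, which switches on its own inhibitors, such as the Sprouty and Dusp genes. In the gut, Fgf7 (keratinocyte growth factor) and Fgf10 are known as mesenchymal ligands that reach the epithelium through the IIIb splice form of Fgfr2, while Fgf9 is known to signal to the mesenchyme through the IIIc forms.

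In these libraries, Fgf7 and Fgf10 were the ligands with the highest levels, and both were lower in supportive ISEMFs, by 2.84-fold and 2.64-fold. Fgfr1 was lower by 2.78-fold and Fgfr2 by 1.49-fold, while Fgfrl1, which lacks the kinase domain, was 1.47-fold higher. Fgf1 was nearly level, Fgf2 was low and 1.92-fold lower, and Fgf9, Fgf18 and Fgfr3 had few reads or none.

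The bases upstream of Fgf7 and Fgf10, and of Fgfrl1, which went the other way, are shown for reference. Control of these genes by these bases was not tested. Each run holds the 250 bases before the start of the gene in RefSeq (build GRCm38.p6), 5′ to 3′ on the strand of the gene, and each was found by its sequence at a single place in mm9. They lie at chr2:125860144-125860393 for Fgf7, chr13:119503256-119503505 for Fgf10 and chr5:109122998-109123247 for Fgfrl1, all on the plus strand. The Fgf10 run lies inside the annotated mm9 gene, which has a longer transcript that starts upstream of it. Capitals mark the letters CCAAT and GGGCGG, searched on both strands, and none of the marked stretches overlap.
Fgf7: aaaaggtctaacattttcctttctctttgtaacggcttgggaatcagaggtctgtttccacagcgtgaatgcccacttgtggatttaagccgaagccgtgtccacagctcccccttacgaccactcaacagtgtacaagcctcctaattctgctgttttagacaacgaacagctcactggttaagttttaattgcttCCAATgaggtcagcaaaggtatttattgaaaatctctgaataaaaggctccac
Fgf10: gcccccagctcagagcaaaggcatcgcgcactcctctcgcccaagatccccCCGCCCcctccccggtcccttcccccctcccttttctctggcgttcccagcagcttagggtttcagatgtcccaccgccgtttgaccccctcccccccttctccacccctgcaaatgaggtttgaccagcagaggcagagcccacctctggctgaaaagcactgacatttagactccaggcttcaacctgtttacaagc
Fgfrl1: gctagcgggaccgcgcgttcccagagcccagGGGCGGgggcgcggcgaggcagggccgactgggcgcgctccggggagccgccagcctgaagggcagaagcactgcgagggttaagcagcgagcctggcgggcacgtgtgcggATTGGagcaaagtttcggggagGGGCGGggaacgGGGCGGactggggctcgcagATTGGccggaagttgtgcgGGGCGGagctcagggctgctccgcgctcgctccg

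The Fgf7 run had a GC content of 43.6%, below the median of 52.4% over 32851 RefSeq promoters, and held 6 CG dinucleotides. The Fgf10 run had 61.2% and 8 CG dinucleotides, and that of Fgfrl1 had 73.6% and 30. CCAAT was present in the Fgf7 run, starting 53 bases before the start, and at 2 places on the minus strand in that of Fgfrl1, and 33.8% of all promoters hold it. GGGCGG, the GC box, was present in the runs of Fgf10 (1 place) and Fgfrl1 (4 places) and in 32.7% of all promoters. Neither TATAAA nor TGANTCA, the AP-1 motif, was present in these runs, and 12.4% and 6.7% of all promoters hold them. None of the motifs searched was present in both the Fgf7 and the Fgf10 run. Promoters were listed for 8 of the 10 genes, those other than Fgf1 and Fgfr1.

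The libraries held 50674472 reads on genes in supportive and 49615497 in non-supportive ISEMFs. Mitochondrially encoded genes took 14.6% of these reads in supportive and 7.85% in non-supportive ISEMFs. RPKM is the number of reads of a gene per kilobase of its exons, scaled to the number of reads in the library. Ratios are of the RPKM values, with a 95% exact interval computed from the reads, which covers counting error only and compares these libraries, not the populations. Acta2, the gene of α-smooth muscle actin, had RPKM values of 908 and 1410, and Vim had 325 and 407, so markers of the labelled cell type were abundant in both. Of the 5 myofibroblast markers, Acta2, Vim, Tagln and Myl9 were lower in supportive ISEMFs by less than 2-fold, and Pdgfrb, at 28.1 and 7.67, was 3.66-fold higher. The 7 macrophage and other immune markers in the table summed to an RPKM of 6.86 in supportive and 121 in non-supportive ISEMFs, and all 7 were lower in the former, where Ptprc, Tyrobp and Emr1 were at 0. Of the 4 smooth muscle markers, 3 were at least 2-fold lower in supportive ISEMFs, Des among them at 0.575 and 3.40, while Smtn was 1.55-fold higher, and the list summed to 110 and 301. The epithelial list summed to 0.530 and 3.47, with Cdx2 at 0 in both libraries. Krt20 made most of the latter sum, at 0.0799 and 3.13, while Cdh1 went the other way, at 0.427 and 0.0497. The endothelial list summed to 0.131 and 0.209, with 2 and 88 reads for Kdr and, in the other direction, 65 and 2 reads for Tek. The glial list, through S100b, was higher in supportive ISEMFs, with sums of 6.74 and 0.190. The list for interstitial cells of Cajal summed to 0.0225 and 1.95, nearly all from Ano1, while Kit had 0 and 6 reads. The mesothelial list summed to 0.127 and 0.0432. The part of such cells in the differences below was not tested, and in bulk RNA fewer cells of a type and less RNA per cell cannot be told apart.

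In mm9, Fgf7 is a plus-strand gene of chromosome 2 (125860394 to 125916921). It had 3502 reads in supportive and 9664 reads in non-supportive ISEMFs, and RPKM values of 8.89 and 25.2. The level was 2.84-fold lower in supportive ISEMFs (95% exact interval, 2.73 to 2.95). Fgf10 is a plus-strand gene of chromosome 13 (119458598 to 119580922). It had 3593 and 9228 reads, and RPKM values of 10.3 and 27.2, a level 2.64-fold lower (interval, 2.54 to 2.75). Both Fgf7 and Fgf10 are ligands of epithelial Fgfr2, though not its only ones, and the supportive library held the lower level of both. Among protein-coding genes, Fgf10 was at rank 2268 by RPKM in supportive and 914 in non-supportive ISEMFs, and Fgf7 was at rank 2605 and 998.

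The ratio of Fgf10 to Fgf7 was close to the same in both libraries, at 1.16 in supportive and 1.08 in non-supportive ISEMFs by RPKM. Per merged exon base, with overlapping exons counted once as described below, it was 0.724 and 0.674. Which of these genes was higher within a library thus depends on the lengths used. The change in that ratio was 1.07-fold (interval, 1.02 to 1.14), small beside the 2.64-fold and 2.84-fold differences of the genes themselves.

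Fgf1 and Fgf2 are ligands without a classical signal peptide, and Fgf1 binds all the receptor kinases. Fgf1 is a minus-strand gene of chromosome 18 (38998327 to 39089058). It had 451 reads in supportive and 421 in non-supportive ISEMFs, with RPKM values of 0.900 and 0.864. Its ratio of 1.04 had an interval of 0.910 to 1.19, and at this depth no difference was detectable. Fgf2, a plus-strand gene of chromosome 3 (37211441 to 37304299), had 115 and 215 reads, with RPKM values of 0.508 and 0.978. Its level was 1.92-fold lower in supportive ISEMFs (interval, 1.53 to 2.43), which did not reach the 2-fold line, although the interval does. In the annotation, 297 of the 1802 exon bases of Fgf2 are shared with Nudt6, Cetn4 or Bbs12, and most of them with Nudt6, which runs on the opposite strand. The library kit did not mark strand, so reads on those bases could not be given to a single gene, and the Fgf2 count is uncertain to that extent.

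Fgf9 and Fgf18 were at the limit of detection. Fgf9, on chromosome 14 from 58689384 to 58731174, had 0 reads in supportive and 7 reads in non-supportive ISEMFs. Its RPKM was 0 and 0.0195, and with 3 reads as the floor a level up to 0.00812 was possible in the former. The 95% exact interval, which also covers the counting error of the 7 reads, puts the level in supportive ISEMFs at least 1.48-fold lower. Fgf18, on chromosome 11 from 33017430 to 33047400, had 9 and 8 reads, with RPKM values of 0.106 and 0.0970. The interval of its ratio, 0.374 to 3.26, spans a 2-fold difference either way, so these counts show neither a difference nor the lack of one.

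Fgfr1 and Fgfr2 are the receptor kinases that were clearly present. The main Fgfr1 gene is on the plus strand of chromosome 8 (26624126 to 26686186). It had 1471 reads in supportive and 3980 in non-supportive ISEMFs, and RPKM values of 1.22 and 3.39, a level 2.78-fold lower (interval, 2.62 to 2.96). The other Fgfr1 identifier, from 26629267 to 26642853, had 0 reads in either library. All of its 761 exon bases lie within exons of the main gene, and the authors excluded reads assignable to more than 1 gene, so its value of 0 says nothing about expression there. Fgfr2, on chromosome 7 and the minus strand, had 1923 and 2786 reads and RPKM values of 1.78 and 2.66. Its level was 1.49-fold lower in supportive ISEMFs (interval, 1.41 to 1.58), a smaller difference than that of Fgfr1. The annotated Fgfr2 gene, from 137305965 to 140315033, spans 3009069 bases because of 1 long transcript, while the median transcript spans 97899, and 314 of its exon bases are shared with Ctbp2.

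Fgfr3, on chromosome 5 from 34064373 to 34079716, had 23 and 26 reads and RPKM values of 0.0291 and 0.0338. Its ratio of 0.860 had an interval from 0.469 to 1.57. Fgfr4, the remaining receptor kinase, had 0 reads in supportive and 5 in non-supportive ISEMFs. The receptor kinase transcripts of these cultures were thus almost all from Fgfr1 and Fgfr2.

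Fgfrl1 encodes a receptor that binds FGFs without an intracellular kinase. It is a plus-strand gene of chromosome 5 (109123248 to 109135969) and had 1313 reads in supportive and 868 in non-supportive ISEMFs, with RPKM values of 6.92 and 4.71. It was 1.47-fold higher in supportive ISEMFs (interval, 1.35 to 1.60), and of the 5 genes that reached an RPKM of 1 it alone was higher there. The ratio of Fgfr1 to Fgfrl1 by RPKM was 0.176 in supportive and 0.721 in non-supportive ISEMFs. Per merged exon base it was 0.369 and 1.51, so on that scale Fgfr1 was above Fgfrl1 in non-supportive ISEMFs. The ratio of Fgfr2 to Fgfr1 by RPKM was 1.47 and 0.784, so the order of these kinases was opposite in the libraries. In reads, the latter ratio changed by 1.87-fold (interval, 1.72 to 2.03).

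**Figure D1:**
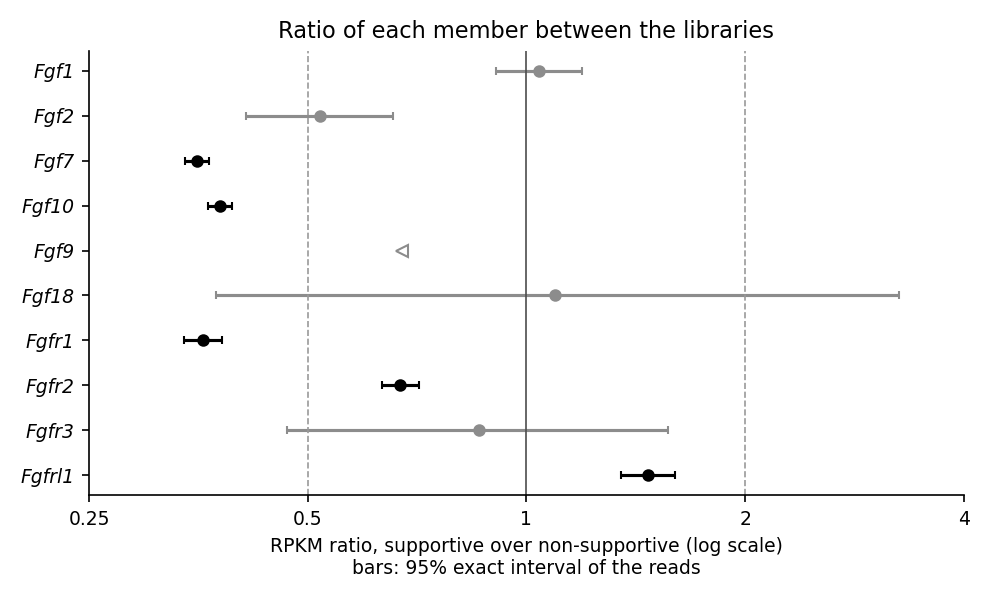
Ratio of RPKM in supportive over non-supportive ISEMFs for each gene on a log scale, with 1 library for each population. Bars are 95% exact intervals from the reads, dashed lines mark 2-fold, black points are genes that reached an RPKM of 1, and the open triangle is the upper limit for Fgf9, which had 0 reads in supportive ISEMFs. Fgf7, Fgf10 and Fgfr1 lie below the lower dashed line with their whole intervals, and Fgfrl1 lies at 1.47.

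For a count against other genes, a gene was called different when its log2 ratio, with a pseudocount of 0.1 added to each RPKM, was at least 1 in size and its RPKM reached 1 in one or both libraries. Of the 10 genes, 5 had such an RPKM, and 3 of them were called, all lower in supportive ISEMFs and 0 higher. The log2 ratios were -1.50 for Fgf7, -1.39 for Fgf10, -1.41 for Fgfr1, -0.55 for Fgfr2 and 0.55 for Fgfrl1. With a pseudocount of 1 that of Fgfr1 was -0.99, just inside the 2-fold line. Among 9110 protein-coding genes, 18.2% were called, 9.25% higher and 8.98% lower, and the median log2 ratio was -0.07. A log2 ratio as low as that of Fgf7 was found for 4.96% of these genes, and one as low as that of Fgf10 for 5.68%.

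**Figure D2:**
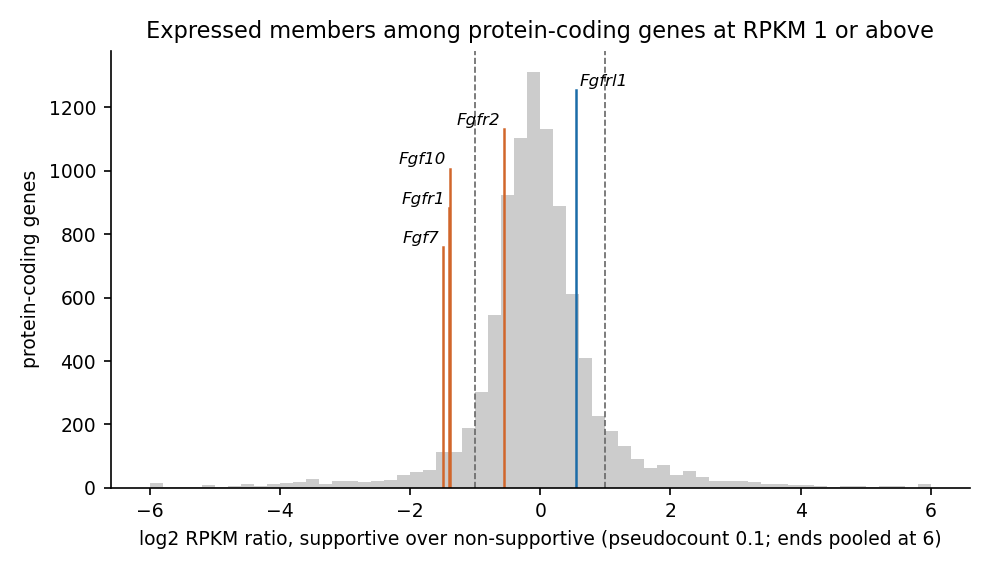
Number of protein-coding genes (y axis) by log2 ratio of RPKM in supportive over non-supportive ISEMFs (x axis, pseudocount of 0.1), for the 9110 genes that reached an RPKM of 1. Solid lines mark the 5 genes described here that reached this RPKM and dashed lines mark 2-fold, with Fgf7, Fgf10 and Fgfr1 in the left tail. Solid lines are blue where the level was higher in supportive ISEMFs and orange where it was lower, and their heights only keep the names apart.

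Without replicates the spread between cultures is unknown, so it was assumed. With a coefficient of variation of 0.2 between cultures, edgeR's exact test with Benjamini-Hochberg adjustment gave adjusted p-values of 0.00451 for Fgf7, 0.00963 for Fgf10 and 0.00574 for Fgfr1, and called 18.0% of 16400 protein-coding genes with a read. The other 7 genes had adjusted p-values from 0.104 upward. With an assumed coefficient of 0.4, the adjusted p-values were 0.559, 0.638 and 0.586, the other genes were at 0.378 or above, and 6.49% of genes were called. Whether these differences exceed the spread between cultures thus depends on a spread that these data do not give.

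Levels of different genes can be compared only per length, and the deposited lengths need care. For 24509 of the 37309 genes the length behind the RPKM equals the merged exons of the gene in GENCODE vM1. For the other 12800 it is longer, by a median factor of 1.34, and never beyond the sum of all distinct exons. The study's methods describe the length as the union of the exons of a gene. The deposited lengths of Fgf2, Fgf7, Fgf9, Fgfr1, Fgfr2 and Fgfr3 equal the sum of distinct exons, which counts overlapping bases more than once. Those of Fgf1 and Fgf10 lie between the merged exons and that sum, and how they were made was not settled. Whether another annotation release was used was not tested. The deposited length of Fgfr1 is 16898 bases against 8061 merged bases, a factor of 2.10, and the factor is 1.93 for Fgfr2, 1.70 for Fgf7 and 1.06 for Fgf10, while the lengths of Fgfrl1 are equal. The deposited RPKM of Fgfr1, Fgfr2 and Fgf7 is lower than the level per merged base by these factors, while a ratio between the libraries is left as it was.

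Per merged exon base, Fgf7 was the highest of the 10 genes, with 15.1 in supportive and 42.8 in non-supportive ISEMFs, and Fgf10 came next with 10.9 and 28.9. By deposited RPKM these were in the opposite order. In supportive ISEMFs Fgfrl1 followed at 6.92, then Fgfr2 at 3.45 and Fgfr1 at 2.55. In non-supportive ISEMFs Fgfr1 followed Fgf10 at 7.11, and Fgfr2 at 5.15 and Fgfrl1 at 4.71 had overlapping intervals. Fgf1 was at 1.36 and 1.30 and Fgf2 at 0.893 and 1.72 on this scale. With both above the minimum, the called genes were still 3, all lower, against 8.93% of genes lower and 9.5% higher among 9647. The intervals of Fgf18 and Fgfr3 overlapped in both libraries, and those of Fgfr3 and Fgf9 in non-supportive ISEMFs.

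**Figure D3:**
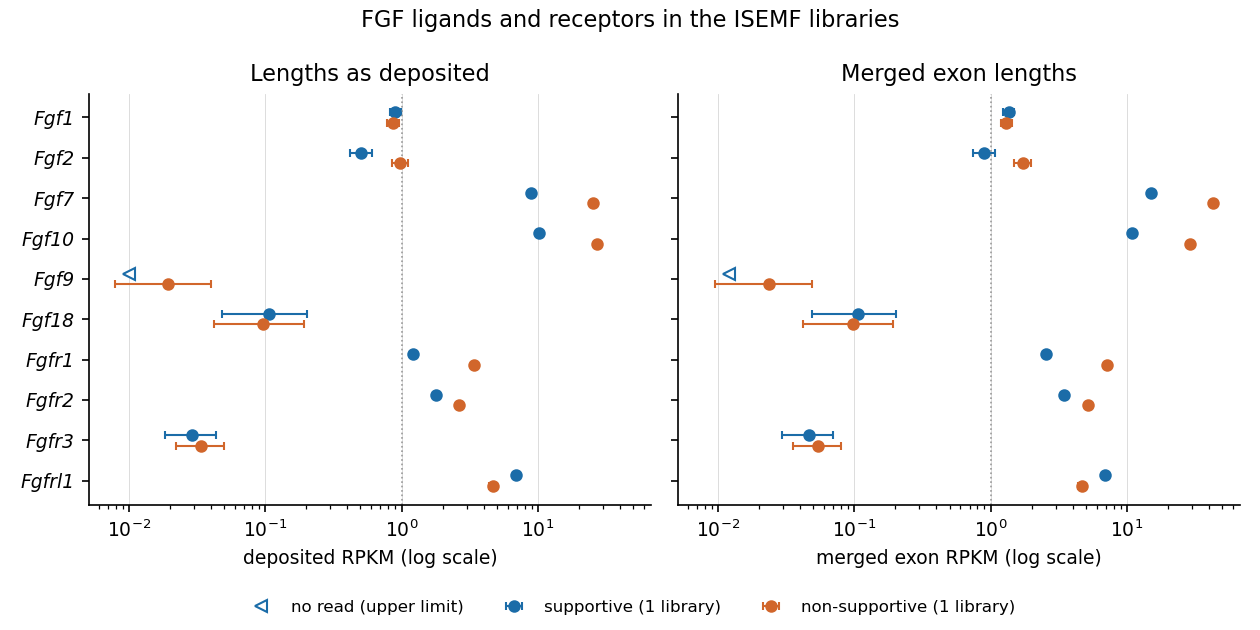
Level of each gene in supportive and non-supportive ISEMFs (1 library each) on a log scale, with lengths as deposited (left) and with merged exon lengths (right). Bars are 95% exact Poisson intervals of the reads, the open triangle is the upper limit for Fgf9 with 0 reads, and the dotted line marks an RPKM of 1. Fgf7 and Fgf10 are the highest points in each panel, and Fgfr1 lies to the right of Fgfrl1 only in non-supportive ISEMFs with merged exon lengths.

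The list of 22 mouse FGF ligands includes intracellular factors that are not secreted, Fgf11 and Fgf13 among them. Together these 22 genes had a merged exon RPKM of 30.9 in supportive and 75.8 in non-supportive ISEMFs. Fgf7 and Fgf10 made 84.3% and 94.6% of these sums. Most of the remainder in supportive ISEMFs came from Fgf1, Fgf11, Fgf5 and Fgf2, with 4.40%, 4.38%, 3.17% and 2.89% of the sum. In non-supportive ISEMFs these genes made 1.72%, 0.393%, 0.213% and 2.27%. Receptor levels, Fgfrl1 included, summed to 13.0 and 17.0. Fgfrl1 made 53.3% of the sum in supportive and 27.6% in non-supportive ISEMFs, and Fgfr1 made 19.7% and 41.7%.

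**Figure D4:**
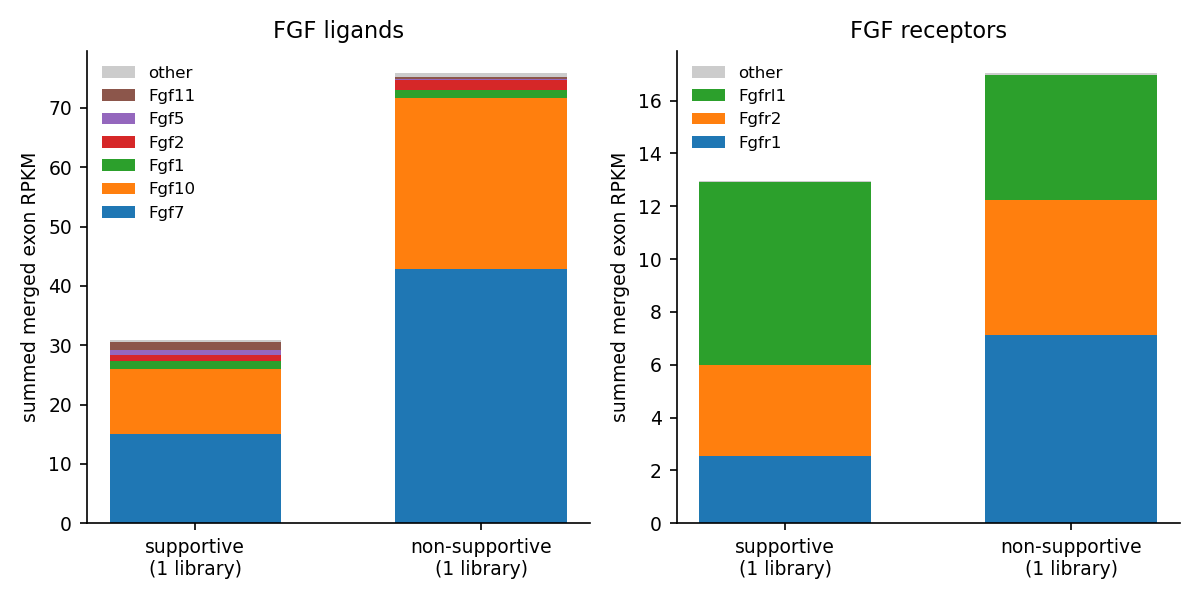
Summed merged exon RPKM of FGF ligands (left) and FGF receptors (right) in supportive and non-supportive ISEMFs, 1 library each. Genes are stacked segments, and the ligand bars include the intracellular Fgf11. Fgf7 and Fgf10 fill most of the ligand bars, 84.3% and 94.6%, and Fgfrl1 fills 53.3% and 27.6% of the receptor bars.

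None of the 16 other genes listed as ligands reached a deposited RPKM of 1, and 6 had no read in either library. The 3 genes Fgf5, Fgf11 and Fgf13 had a log2 ratio of at least 1 in size and are named for that reason. With no minimum set, 11.8% of protein-coding genes had such a ratio. Fgf5, a secreted ligand, had 175 reads in supportive and 28 in non-supportive ISEMFs, a 6.07-fold higher level (interval, 4.06 to 9.41). Fgf11 and Fgf13 belong to the intracellular FGF homologous factors, which are not secreted. Fgf11 had 294 and 63 reads, and its merged exon RPKM was 1.35 and 0.298. Fgf13 had 6 and 102 reads. The klotho co-receptors of the hormone-like FGFs were nearly absent, with 0 reads for Kl in both libraries and 1 and 0 reads for Klb.

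Reads were counted per gene, so the IIIb and IIIc splice forms of the receptors cannot be told apart here. Esrp1 and Esrp2 are epithelial splicing factors that favor the IIIb form of Fgfr2. Esrp1 had 0 reads in supportive and 1 in non-supportive ISEMFs, and Esrp2 had 17 and 39 reads, with RPKM values of 0.0281 and 0.0664.

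The feedback inhibitors and targets of FGF signaling, which also answer to other growth factors, went both ways. Of 15 genes listed, 14 were in the table and 12 reached an RPKM of 1. Of these, 5 were at least 2-fold lower in supportive ISEMFs and 1 was higher, with a median log2 ratio of -0.52 against -0.07 over all protein-coding genes and 18.2% called among the latter. Dusp4, a nuclear MAP kinase phosphatase and the gene with the highest mean level of the list, had RPKM values of 10.8 in supportive and 44.9 in non-supportive ISEMFs, a 4.18-fold lower level. Dusp5, another nuclear phosphatase, was 6.27-fold lower, with 1.21 and 7.55. Spry4, a Sprouty inhibitor of receptor signaling, was 4.05-fold lower, with 5.67 and 23.0. The ETS factor Etv4 was 3.28-fold lower, and Spred3, a Sprouty-related inhibitor, was 2.31-fold lower. Spry1 was the exception, with 14.3 in supportive against 2.41 in non-supportive ISEMFs, a 5.95-fold higher level (interval, 5.40 to 6.56). Dusp6, the cytoplasmic phosphatase for ERK, had a ratio of 1.04 (interval, 0.982 to 1.10), and Etv5 had 0.938 (0.849 to 1.04).

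Genes that make or edit heparan sulfate also differed in both directions. Of 19 genes, 12 reached an RPKM of 1. Of these, 3 were at least 2-fold lower in supportive ISEMFs and 1 was higher, with a median log2 ratio of -0.34, against 8.98% lower, 9.25% higher and a median of -0.07 over all protein-coding genes. Hs6st2, a 6-O-sulfotransferase, was at 51.2 in supportive and 11.9 in non-supportive ISEMFs, a 4.29-fold higher level (interval, 4.18 to 4.40). Sulf2, an extracellular enzyme that removes 6-O-sulfate, was at 1.43 and 6.05, a 4.23-fold lower level (interval, 3.92 to 4.56). Its relative Sulf1 was 1.52-fold lower, with 9.29 and 14.1. Hs2st1, the 2-O-sulfotransferase and the gene with the highest mean level of the list, was 2.15-fold lower, with 46.6 and 100.3. Hs3st3b1, a 3-O-sulfotransferase, was 2.95-fold lower, with 0.399 and 1.18.

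Few genes of the intracellular relay were called. Of 17 genes from the receptor adaptors to the MAP kinases, 16 were in the table, 15 reached an RPKM of 1, and 1 was called, against 18.2% of all protein-coding genes, with a median log2 ratio of -0.34 against -0.07. That gene was Nras, with RPKM values of 16.1 in supportive and 33.9 in non-supportive ISEMFs, a 2.11-fold lower level. Frs2, the docking adaptor of FGF receptors, had the highest mean level, with 35.7 and 26.5, and was 1.35-fold higher in supportive ISEMFs. Of the 6 genes for proteins that bind FGFs or their receptors, 3 reached an RPKM of 1 and 0 were called, with a median log2 ratio of -0.53. The one with the highest mean level, Flrt2, had 4365 and 8410 reads, a 1.98-fold lower level.

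**Figure D5:**
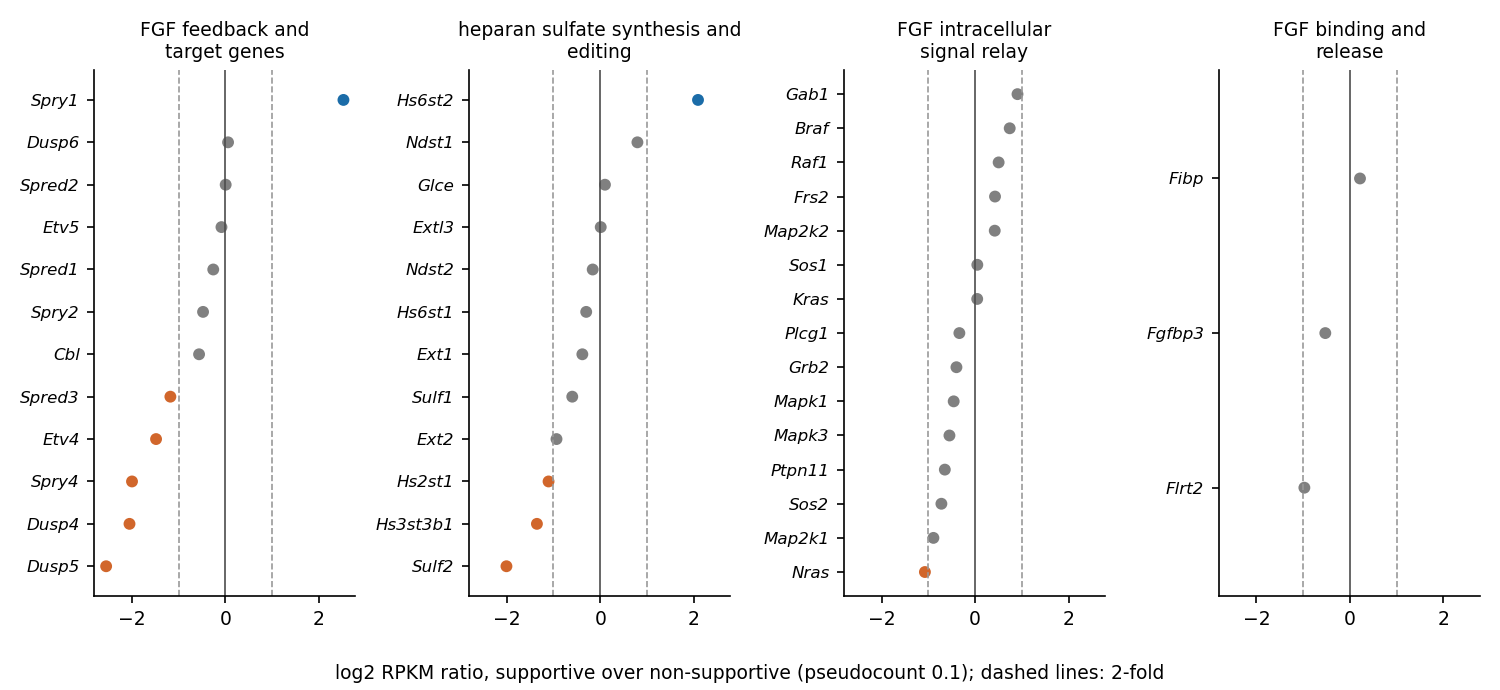
Log2 ratio of RPKM in supportive over non-supportive ISEMFs (x axis, pseudocount of 0.1) for the genes of each list that reached an RPKM of 1, with 1 library for each population. Blue points are at least 2-fold higher in supportive ISEMFs, orange points at least 2-fold lower, and dashed lines mark 2-fold. Spry1 and Hs6st2 are the blue points, and the relay has a single orange point, Nras.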

How the data were processed

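The data are RNA sequencing of 1 library of supportive and 1 library of non-supportive ISEMFs. The authors made the libraries with the TruSeq RNA kit, aligned single-end reads of 50 bases to mm9 with TopHat and Ensembl genes, allowing 2 mismatches and unique hits, and counted reads per gene with HTSeq. The submitters' processing notes name TopHat2 2.0.4 and HTSeq 0.5.4p3. The Ensembl release is not given in the sources used here. The deposited counts are unnormalized reads for each gene. The deposited RPKM values are these counts divided by a gene length and by library sizes of 71463423 (supportive) and 69449374 (non-supportive) reads. The length column holds bases. The authors' columns of log2 ratio and DESeq p-values, and a shorter table of Wnt pathway genes, were not used.

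With 1 library per population no test across replicates is possible. Ratios have Clopper-Pearson intervals of the share of reads, levels have exact Poisson intervals, both at 95%, and 3 reads are taken as the floor. A difference was called at 2-fold (pseudocount 0.1, RPKM of at least 1 in either library). Gene models are from GENCODE vM1 (mm9), which held all 37309 identifiers, and promoters from RefSeq. The genes named are the 10 members, from each list those called and the one with the highest mean RPKM, the receptor, co-receptor and splicing genes, and markers. Dusp6, Etv5, Sulf1, Fgf5, Fgf11 and Fgf13 were named after their values were seen. So were the markers Tagln, Myl9, Smtn, Cdh1, Cdx2, Tek and Kit. The members and lists were chosen with earlier results of these data known. Levels with merged exon lengths were added after the data were seen. The ratio interval and the 2-fold call were tested on simulated data, and the other calculations were not. The simulated reads had counting error only, as the interval assumes, so that test says nothing about the spread between cultures. The software was edgeR 4.0.16 for the exact test and TMM, DESeq2 1.42.0 for median-of-ratios factors, R 4.3.3, and Python 3.11.15 with scipy 1.17.1, pandas 2.3.3, matplotlib 3.10.9 and numpy 2.4.6.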

Additional observations from a re-analysis of the deposited data

How the results depend on the processing

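Each population has 1 library, so no library could be left out, and no paired analysis was possible because there is no replicate. Over 70 values of the log2 ratio of the 10 genes under 7 alternatives, 0 turned in sign among the genes called. A pseudocount or a changed gene length cannot turn a sign, so only the alternatives of scaling could have done so. Of the 70 values, 48 stayed between the reported value and the bounds of its counting interval. They include all 10 with merged exon lengths, which move only through the pseudocount. The log2 ratio of Fgf9 is set by the pseudocount, at -0.26 with 0.1 and -4.36 with 0.001. The latter counts among the 48 because the interval of Fgf9 has no lower bound on the log scale. With a pseudocount of 1 the log2 ratios were -1.41 for Fgf7, -1.32 for Fgf10, -0.99 for Fgfr1, -0.39 for Fgfr2, -0.39 for Fgf2 and -0.028 for Fgf9. With TMM factors they were -1.44 for Fgf7, -1.34 for Fgf10, -1.35 for Fgfr1 and -0.25 for Fgf9, and with median-of-ratios size factors -1.37 for Fgfr1 and -0.25 for Fgf9. With the median log2 ratio set to 0 they were -1.43 for Fgf7, -1.33 for Fgf10, -1.34 for Fgfr1, -0.49 for Fgfr2 and -0.25 for Fgf9. Without mitochondrial genes in the library size, which shifted the median of all genes by 0.12, they were -1.38 for Fgf7, -1.27 for Fgf10, -1.29 for Fgfr1, -0.44 for Fgfr2 and -0.25 for Fgf9. The 3 called genes fell to 0 at a 4-fold threshold and in edgeR's exact test with an assumed coefficient of variation of 0.4. The share of protein-coding genes called was 35.7% at 1.5-fold, 6.62% at 4-fold, 11.8% with no minimum and 6.49% in that test. With no minimum on RPKM the other ligands had 3 called genes, and the median log2 ratios were -0.37 for feedback genes, -0.22 for the relay and -0.21 for FGF binding genes, and the last was -0.35 with a pseudocount of 1. With merged exon lengths the other ligands had 1 called gene, Fgf11, and 2 of the 10 genes took another rank by level in supportive and 5 in non-supportive ISEMFs.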
